A study of Mus musculus with 4 samples.

Results

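Interferon response genes are described here in mouse LSK cells, the lineage-negative, Sca-1-positive and Kit-positive bone marrow fraction that holds blood stem cells and early multipotent progenitors. The set has 37 interferon-induced genes, taken by gene symbol from the 24421 genes of the count table, and all 37 were found and passed the filter on low counts. They fall into 30 targets of type I interferon and 7 interferon-inducible GTPases of the Irg and Gbp families. RNA was sequenced from 2 control libraries (WT, Ctrl littermates, labelled wild type) and 2 libraries from Zfp521-/- mice (KO). Zfp521 is a zinc finger transcription cofactor, and the labels name no Cre driver or treatment. The labels state no age, sex or strain. The design text speaks of independent RNA from cell pools without tying a library to animals. The p-values therefore reflect library-to-library spread, part of which may be technical.

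Type I interferons bind a receptor made of IFNAR1 and IFNAR2. Its kinases JAK1 and TYK2 act on STAT proteins, and the complex ISGF3, which holds STAT2 and IRF9, binds interferon-stimulated response elements (ISRE) in target promoters. Interferon gamma uses another receptor, and its signal reaches gamma-activated sites (GAS). The Irg and Gbp GTPases are classical interferon gamma targets that also respond to type I interferon. In bone marrow, interferon is known to push resting stem cells into cycle, and Ly6a, which encodes the Sca-1 antigen used for this sort, is itself interferon-inducible.

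Library totals ran from 17787425 to 29863594 counts, and 3 counts, the floor used here, correspond to between 0.108 and 0.152 CPM. CPM are counts per 1000000 counts of a library scaled with TMM factors. The targeted gene, Zfp521, was read 1561 and 1429 times in WT, and 308 and 215 times in KO, as labelled. WT replicate 2 stood apart by sex-linked transcripts, with 606 Xist counts against 160613 to 230977 in the other libraries and 5606 counts over 4 Y-linked genes against 9 to 14. KO replicate 2 stood apart by a smaller share of ribosomal precursor reads (Rn45s), 9.37% against 14.6% to 15.7%. All 9 LSK markers were detected, with Kit between 617 and 708 CPM in the 4 libraries. Of these 9, Cd34, which marks multipotent progenitors within the gate, was lower in KO, from 499 and 496 CPM in WT to 369 and 282 CPM (log2 fold change -0.61, edgeR adjusted p = 0.0408; 0.0933 to 0.231 when WT replicate 1, WT replicate 2 or KO replicate 2 was left out). Cd48, also a progenitor marker, had a log2 fold change of -0.60 (edgeR adjusted p = 0.106). Ly6a was at 47.7 and 36.9 CPM in WT and at 37.3 and 67.0 CPM in KO (log2 fold change 0.30, edgeR adjusted p = 0.527), and as a sort gene it is no finding between groups.

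The comparison of KO with WT asked whether loss of Zfp521 was accompanied by a different interferon signature in LSK cells. By edgeR (quasi-likelihood test, Benjamini-Hochberg adjustment over 14140 genes, threshold 0.05), 1 of the 37 members was higher in KO and none lower, where 3.77% of all genes tested were higher and 3.01% lower. DESeq2 called 5 members higher (5.64% of its genes) and none lower (5.34%). Members called higher numbered 14 with no filter on low counts (5.98% of genes higher, 5.59% lower), 2 with upper quartile factors (4.7% and 2.04%) and 10 with the replicate number as a block (9.28% and 9.29%). At an unadjusted p under 0.05, edgeR gave 12 members higher and 1 lower, against 13.1% and 11.4% of all genes. The called gene was Iigp1, an Irg GTPase. The member median log2 fold change was 0.57 against 0.02 over all genes tested. The median depended on KO replicate 2: without that library it was -0.01, and without KO replicate 1 it was 0.85.

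Within the set, the 2 KO libraries differed more for the type I targets than for the GTPases. Summed over the 30 type I targets, the level was 867 and 809 CPM in WT. The KO sums were 814 CPM for replicate 1 and 1446 CPM for replicate 2. The 7 GTPases summed to 281 and 278 CPM in WT and to 275 and 277 CPM in KO. KO replicate 2 thus carried more type I transcripts than the other 3 libraries, which lay close together, while the GTPase total was nearly equal in all 4. That total held opposite moves of single genes. In KO replicate 2, Ifi47 was at 99.0 CPM against 133 and 132 CPM in WT. Irgm1 was there at 58.3 CPM against 31.3 and 33.3 CPM in WT. Of the 30 type I targets, 28 were higher in KO replicate 2 than in KO replicate 1, and 14 by at least 2-fold. Over all genes tested these shares were 49.2% and 6.68%, and no type I target was lower by 2-fold, as 5.93% of genes were. The median difference between the KO libraries was 0.98 on the log2 scale for type I targets, 0.22 for the GTPases and -0.01 for all genes. The WT libraries differed by a median of -0.20 for type I targets. None of the 7 GTPases differed by 2-fold between the KO libraries. Outside the set the contrast was small. The median difference between the KO libraries was 0.35 for 45 other type I induced genes and 0.32 for 14 other Irg and Gbp genes. These are differences between single libraries, and no test was applied to them.

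**Figure D1:**
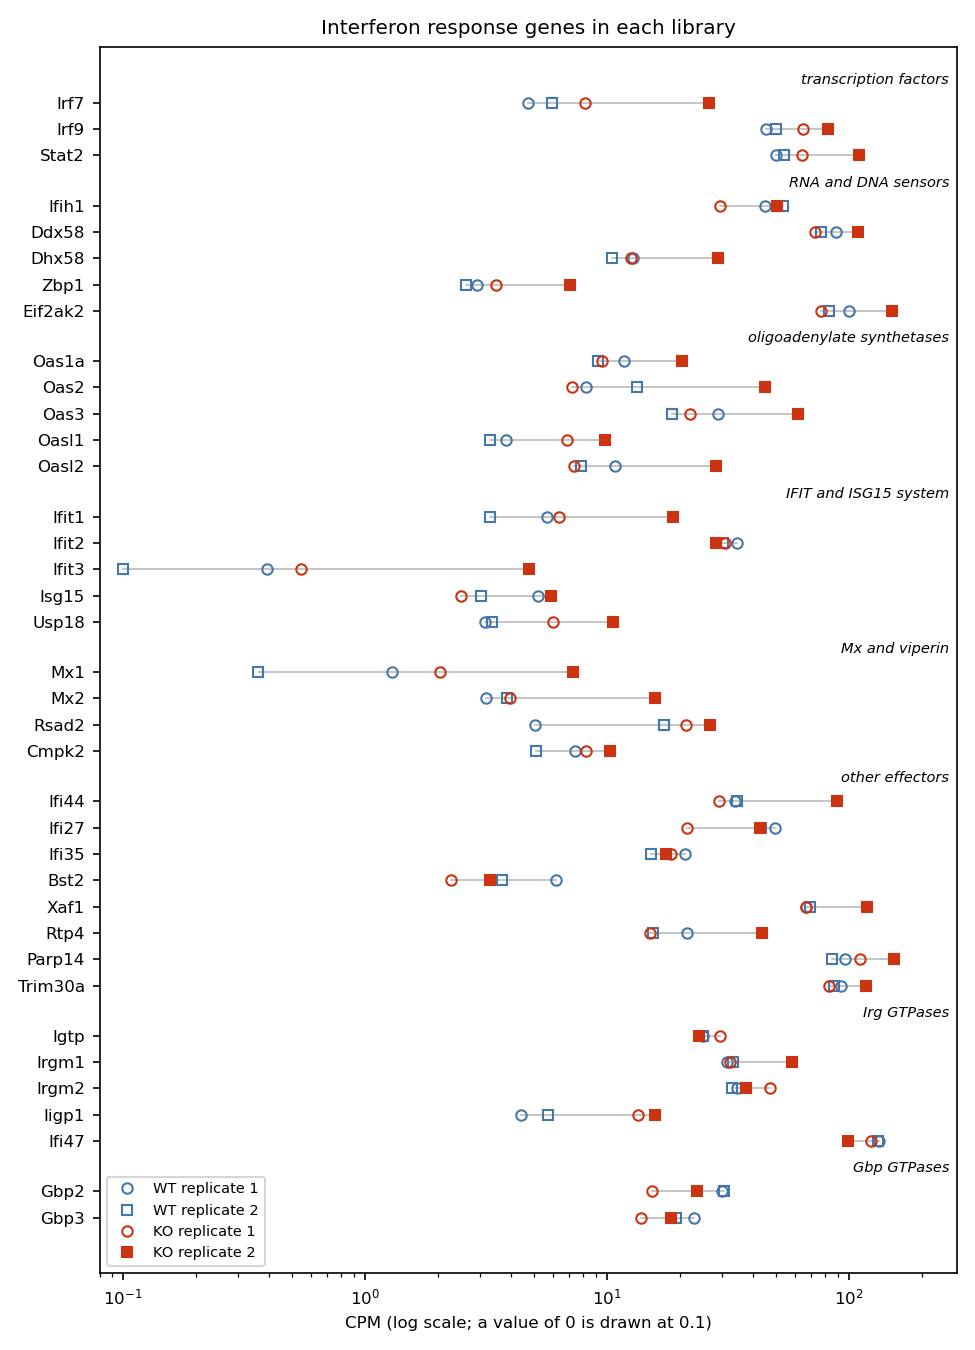
Level of each of the 37 members in the 4 libraries, in CPM on a log axis, grouped by role (blue WT, red KO; circles replicate 1, squares replicate 2). KO replicate 2 (filled square) is the highest library for 25 of 30 type I targets and for 2 of 7 GTPases.

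KO replicate 2 was the highest of the 4 libraries for 25 of 30 type I targets and for 2 of 7 GTPases, where 31% of all genes tested had their highest value there. KO replicate 1 was the highest for none of the type I targets, against 22.4% of all genes. Both KO libraries lay above both WT libraries for 13 type I targets and 2 GTPases, and below them for 2 and 3. Over all genes tested, 28.8% lay above and 27.6% below. Against the WT mean, KO replicate 1 was higher for 15 of 30 type I targets (median difference 0.01 on the log2 scale) and KO replicate 2 for 26 (median 1.18). Both figures use the same WT libraries.

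**Figure D2:**
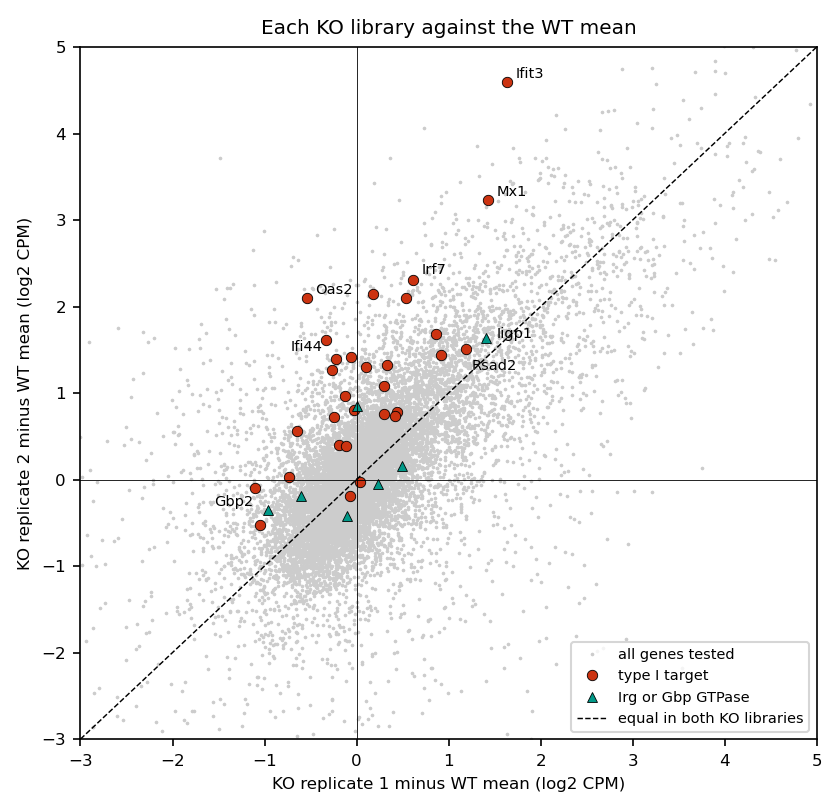
Difference of each KO library from the WT mean in log2 CPM, KO replicate 1 on the horizontal and KO replicate 2 on the vertical axis, for type I targets (red circles), Irg and Gbp GTPases (green triangles) and all genes tested (grey; those beyond the axes are not drawn). Type I targets sit mostly above the dashed line of equal values, with medians of 0.01 and 1.18, while Iigp1 lies close to that line.

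Of the 37 members, 27 had a promoter window (250 bases before to 50 after the start site) in the RefSeq table for GRCm38.p6, the same build as mm10. The ISRE core was searched as GAAA, any 2 bases, GAAA, and the GAS core as TTC, any 3 bases, GAA, on both strands. An ISRE core was present for 12 of 21 matched type I targets (57.1%) and 5 of 6 matched GTPases (83.3%), against 3.99% of 27025 genes in the table. A GAS core was present for 5 (23.8%) and 2 (33.3%), against 9.55%. Oas2, Mx1, Mx2, Usp18 and Rtp4 were among the members with no window. The ISRE motif thus occurred in both groups, and its part in their levels in KO replicate 2 was not tested. The windows below show it in members of both, with ISRE matches in capitals, upstream of the start site only and read along the gene. An element on the other strand reads as TTTC, any 2 bases, TTTC, and overlapping matches run together. Isg15 (chr4:156200855-156200916, minus strand), Ifit1 (chr19:34640765-34640833, plus), Ifit3 (chr19:34583353-34583436, plus) and Oas3 (chr5:120777705-120777754, minus) are type I targets. Igtp (chr11:58199502-58199551, plus), Irgm2 (chr11:58214893-58214942, plus) and Gbp2 (chr3:142620584-142620633, plus) are GTPases.
Isg15: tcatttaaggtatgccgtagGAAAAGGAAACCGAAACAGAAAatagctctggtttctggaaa
Ifit1: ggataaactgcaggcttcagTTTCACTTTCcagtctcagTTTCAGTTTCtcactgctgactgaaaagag
Ifit3: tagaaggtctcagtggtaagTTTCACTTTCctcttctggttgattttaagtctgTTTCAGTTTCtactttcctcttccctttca
Oas3: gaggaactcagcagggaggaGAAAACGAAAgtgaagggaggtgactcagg
Igtp: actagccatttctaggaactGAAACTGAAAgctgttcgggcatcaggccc
Irgm2: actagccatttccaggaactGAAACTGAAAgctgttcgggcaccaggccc
Gbp2: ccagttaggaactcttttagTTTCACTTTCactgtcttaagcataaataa
Isg15 held 3 overlapping matches, Ifit1 and Ifit3 held 2 separate ones each, and the others 1. The Igtp and Irgm2 windows also held a GAS core, starting 45 and 75 bases before the start site and not overlapping the ISRE. In Bst2 the GAS and an ISRE match overlapped. Irf7, Irf9, Oasl1, Oasl2, Ifi44, Xaf1, Cmpk2 and Ifi47 had neither core in their windows. A match is a run of letters and not a measured binding site.

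Interferon transcripts themselves were close to absent. Of 20 ligand genes listed, which include Ifnb1, the Ifna genes and Ifng, 19 had no read in any library. A count of 0 allows up to 0.108 to 0.152 CPM per library. Ifnk, an epithelial type I interferon, was read 7 and 4 times in WT, and 2 and 9 times in KO, below the filter.

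Of 9 receptor chains and kinases, none passed the threshold (median log2 fold change 0.05; 1 had an unadjusted p under 0.05, and without KO replicate 1 edgeR called 2 higher). Ifnlr1, the interferon lambda receptor chain, was at most at 1.54 CPM, while the other 8 were above 18 CPM in every library. Ifnar1 was at 110 and 126 CPM in WT and at 105 and 116 CPM in KO, with overlapping groups. Ifngr1, the ligand-binding chain for interferon gamma, was at 62.1 and 70.2 CPM in WT and at 84.4 and 121 CPM in KO (log2 fold change 0.63, standard error 0.20, edgeR adjusted p = 0.0787). Its KO values lay above both WT values, with the higher one in KO replicate 2.

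Among the transcription factors of the response, Irf7, the amplifier of type I interferon production (chr7:141262706-141266481), had the second smallest p of the set. It was at 4.71 and 5.92 CPM in WT and at 8.14 and 26.4 CPM in KO. Both KO values lay above WT, and KO replicate 2 was 3.24 times KO replicate 1 (95% interval 2.73 to 3.86, exact binomial, counting error only). Its log2 fold change was 1.70 (standard error 0.485, edgeR adjusted p = 0.0585; 0.0111 in DESeq2). Irf9, the DNA-binding subunit of ISGF3, was at 45.4 and 50.04 CPM in WT and at 64.6 and 82.0 CPM in KO (log2 fold change 0.62, standard error 0.19, edgeR adjusted p = 0.0758). Stat2, its signalling partner, was at 50.1 and 54.1 CPM in WT and at 64.2 and 111 CPM in KO (log2 fold change 0.75, standard error 0.24, edgeR adjusted p = 0.0817). For both genes the groups did not overlap, KO replicate 2 was the highest, and DESeq2 put them past the threshold (adjusted p = 0.0449 and 0.0390).

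Of 8 transcription factors of the pathway outside the set, 1 was higher and none lower, with a median of 0.25 and an unadjusted p under 0.05 for 5 (3 higher, 2 lower). Without KO replicate 1, edgeR called 2 higher and 1 lower. The called gene was Irf8, a factor of dendritic cells and monocytes, at 31.8 and 24.9 CPM in WT and at 72.2 and 50.7 CPM in KO (log2 fold change 1.12, standard error 0.23, edgeR adjusted p = 0.0192). In contrast to Irf7, its higher KO value was in replicate 1. Leaving out WT replicate 1 gave Irf8 an adjusted p of 0.0526, and leaving out WT replicate 2 gave 0.154.

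The sensors of foreign RNA and DNA had a median log2 fold change of 0.31, and all 5 were higher in KO replicate 2 than in KO replicate 1. Ifih1 (MDA5) was at 45.1 and 53.7 CPM in WT and at 29.5 and 50.3 CPM in KO. Ddx58 (RIG-I) was at 88.8 and 77.0 CPM in WT and at 72.4 and 109 CPM in KO. Dhx58 (LGP2), a regulator of both, was at 12.9 and 10.5 CPM in WT and at 12.5 and 28.9 CPM in KO. The groups overlapped for these 3 helicase genes. For Ifih1, KO replicate 1 lay below both WT libraries and KO replicate 2 between them. For Ddx58, KO replicate 1 lay below both WT libraries and KO replicate 2 above them. For Dhx58, KO replicate 1 lay between the WT libraries and KO replicate 2 above them. Eif2ak2, the RNA-activated kinase PKR, was at 100.2 and 82.8 CPM in WT and at 76.8 and 151 CPM in KO (log2 fold change 0.31, edgeR adjusted p = 0.487). Zbp1, a sensor of Z-form nucleic acid, was low, at 2.91 and 2.62 CPM in WT and at 3.48 and 7.01 CPM in KO.

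The oligoadenylate synthetases, enzymes that sense double-stranded RNA, had the largest median gap between the KO libraries of the 8 role groups (1.47 on the log2 scale). Oas2 was at 8.23 and 13.4 CPM in WT and at 7.19 and 45.2 CPM in KO. KO replicate 1 was thus the lowest of the 4 libraries and KO replicate 2 the highest, 6.29 times higher (95% interval 5.31 to 7.49, counting error only). Oas3 was at 28.7 and 18.6 CPM in WT and at 22.1 and 61.6 CPM in KO. Oas1a was at 11.8 and 9.18 CPM in WT and at 9.54 and 20.4 CPM in KO. Oas1a, Oas2 and Oas3 are neighbours on chromosome 5 (from 120730333 to 120907521), and in all 3 KO replicate 1 lay within or below the WT range.

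Oasl2, an OAS-like gene, was at 10.8 and 7.81 CPM in WT and at 7.28 and 28.1 CPM in KO. Its neighbour Oasl1 was at 3.84 and 3.30 CPM in WT and at 6.83 and 9.81 CPM in KO (log2 fold change 1.22, standard error 0.43, edgeR adjusted p = 0.110). Oasl1 was the 1 synthetase-family member with both KO libraries above WT.

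In the IFIT and ISG15 group, neighbouring genes differed. Ifit1, which binds viral RNA caps (chr19:34640871-34650009), was at 5.67 and 3.30 CPM in WT and at 6.33 and 18.8 CPM in KO (log2 fold change 1.48, standard error 0.51, edgeR adjusted p = 0.102). Ifit3 was read 11 and 0 times in WT, and 12 and 94 times in KO (log2 fold change 3.68, standard error 1.36, edgeR adjusted p = 0.122), a fold that rests on few WT reads, and its near-identical copy Ifit3b makes the value uncertain. Ifit2, from the same cluster on chromosome 19, was at 34.5 and 30.1 CPM in WT and at 30.7 and 28.1 CPM in KO. Ifit2 was thus level across all 4 libraries (log2 fold change -0.14, standard error 0.23, edgeR adjusted p = 0.756), unlike the other 2.

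Isg15, a ubiquitin-like modifier, was at 5.17 and 3.02 CPM in WT and at 2.49 and 5.89 CPM in KO (log2 fold change 0.03, edgeR adjusted p = 0.984), with overlapping groups. Usp18, which removes ISG15 and dampens the receptor, was at 3.12 and 3.34 CPM in WT and at 5.97 and 10.6 CPM in KO (log2 fold change 1.35, standard error 0.46, edgeR adjusted p = 0.0979). Usp18 was above WT in both KO libraries.

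All 4 genes of the Mx and viperin group had both KO libraries above both WT libraries, and none passed the threshold. Mx1, a dynamin-like antiviral GTPase outside the Irg and Gbp families, was read 36 and 9 times in WT, and 45 and 143 times in KO (log2 fold change 2.47, standard error 0.83, edgeR adjusted p = 0.0938; 0.0414 in DESeq2). Its relative Mx2 was at 3.16 and 3.86 CPM in WT and at 3.98 and 15.8 CPM in KO (log2 fold change 1.49, standard error 0.57, edgeR adjusted p = 0.135). In KO replicate 1 Mx2 was near its WT level.

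Rsad2 (viperin) was the member for which the WT libraries differed most among those with over 100 counts in each library. It was at 5.03 and 17.1 CPM in WT and at 21.3 and 26.6 CPM in KO (log2 fold change 1.11, standard error 0.45, edgeR adjusted p = 0.158). Without WT replicate 2, the library with the male pattern, it passed the threshold (log2 fold change 2.23, adjusted p = 0.0227). Cmpk2, a nucleotide kinase gene next to Rsad2 on chromosome 12, was at 7.40 and 5.07 CPM in WT and at 8.23 and 10.3 CPM in KO. Its WT libraries did not show the Rsad2 gap.

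Among the other effectors, Ifi44 was at 33.7 and 34.4 CPM in WT and at 29.2 and 89.6 CPM in KO, a ratio of 3.07 between the KO libraries (95% interval 2.81 to 3.37, counting error only). Rtp4, a chaperone-like protein, was at 21.3 and 15.5 CPM in WT and at 15.1 and 43.9 CPM in KO. Xaf1, a pro-apoptotic factor, was at 66.8 and 69.1 CPM in WT and at 66.6 and 119 CPM in KO. In all 3, KO replicate 1 lay below or at WT and KO replicate 2 above it.

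Parp14, an ADP-ribosyltransferase, was at 96.1 and 85.3 CPM in WT and at 111 and 154 CPM in KO (log2 fold change 0.55, standard error 0.19, edgeR adjusted p = 0.0981), with no overlap. Trim30a, a ubiquitin ligase of the TRIM family, was at 92.9 and 87.1 CPM in WT and at 83.2 and 117 CPM in KO. Ifi35 was at 21.0 and 15.2 CPM in WT and at 18.4 and 17.6 CPM in KO, level between groups.

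A pair of type I targets was lower in both KO libraries than in both WT libraries. For Ifi27, KO replicate 2 was nearly level with WT replicate 2, and the gap came mainly from KO replicate 1. Ifi27 was at 49.4 and 43.3 CPM in WT and at 21.5 and 43.1 CPM in KO (log2 fold change -0.52, standard error 0.29, edgeR adjusted p = 0.296). Without KO replicate 2 it was called lower (log2 fold change -1.11, adjusted p = 0.0101). Bst2 (tetherin), which holds budding virus at the membrane, was at 6.14 and 3.70 CPM in WT and at 2.26 and 3.30 CPM in KO (log2 fold change -0.82, standard error 0.54, edgeR adjusted p = 0.373).

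The Irg GTPases, which act on membranes of vacuoles that hold pathogens, did not share the KO replicate 2 pattern as a group. Iigp1 (Irga6; chr18:60376027-60392634) was at 4.42 and 5.72 CPM in WT and at 13.5 and 15.8 CPM in KO. Its KO libraries lay close together and well above WT, and it rose 2.88-fold (log2 fold change 1.53, standard error 0.35, edgeR adjusted p = 0.0270). Iigp1 lost the call when WT replicate 1 (adjusted p = 0.219) or WT replicate 2 (adjusted p = 0.0929) was left out, and it kept the call without either KO library. Irgm1, a regulator of the family, was at 31.3 and 33.3 CPM in WT and at 32.3 and 58.3 CPM in KO. Among the 7 GTPases of the set it alone had the type I pattern. It was 1.80 times higher in KO replicate 2 than in KO replicate 1 (95% interval 1.64 to 1.98, counting error only).

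Irgm2 was at 34.4 and 32.8 CPM in WT and at 47.4 and 37.5 CPM in KO. Igtp (Irgm3) was at 24.9 and 25.0 CPM in WT and at 29.4 and 24.1 CPM in KO. For both the higher KO value was in replicate 1, the reverse of the type I targets. The annotated exons of Igtp and Irgm2 share 162 bases on 1 strand, so reads there cannot be assigned. Ifi47 (Irgd) was at 133 and 132 CPM in WT and at 123 and 99.0 CPM in KO (log2 fold change -0.25, standard error 0.17, edgeR adjusted p = 0.372), lowest in KO replicate 2.

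The 2 Gbp members, guanylate-binding proteins that coat such vacuoles, were lower in both KO libraries. Gbp2 was at 29.9 and 30.4 CPM in WT and at 15.4 and 23.5 CPM in KO (log2 fold change -0.63, standard error 0.27, edgeR adjusted p = 0.178). Gbp3, its neighbour on chromosome 3, was at 22.9 and 19.3 CPM in WT and at 13.8 and 18.4 CPM in KO (log2 fold change -0.39, standard error 0.28, edgeR adjusted p = 0.424). Neither passed the threshold. Among 18 other Irg and Gbp genes, 14 were tested and none passed (median 0.46, and 0.54 without KO replicate 1). Of these 14, 8 had a positive and 6 a negative log2 fold change. An unadjusted edgeR p under 0.05 was seen for 5, all higher in KO (Gbp2b, Gbp4, Gbp9, F830016B08Rik and Gm5431). Over all genes tested, 13.1% were higher and 11.4% lower at that level. Gbp7 was the most abundant of these in CPM, at 158 and 140 CPM in WT and at 123 and 136 CPM in KO. Gbp4 was at 1.15 and 1.69 CPM in WT and at 4.43 and 5.74 CPM in KO (log2 fold change 1.84, edgeR adjusted p = 0.0814). The Gbp genes of chromosomes 3 and 5 are similar in sequence, and so are Tgtp1 and Tgtp2, so their counts are uncertain.

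Per kilobase of annotated exon, the WT mean was highest for Ifi47 (53.5 CPM per kb), followed by Ifi27 (31.6), Trim30a (21.9) and Eif2ak2 (17.9). It was lowest for Ifit3 (0.113) and Mx1 (0.219), with 0.97 CPM per kb for Mx2. Exon lengths merge all annotated transcripts, so genes with retained introns, such as Irf7, come out too low. All members had reads in every library except Ifit3, which had none in WT replicate 2.

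**Figure D3:**
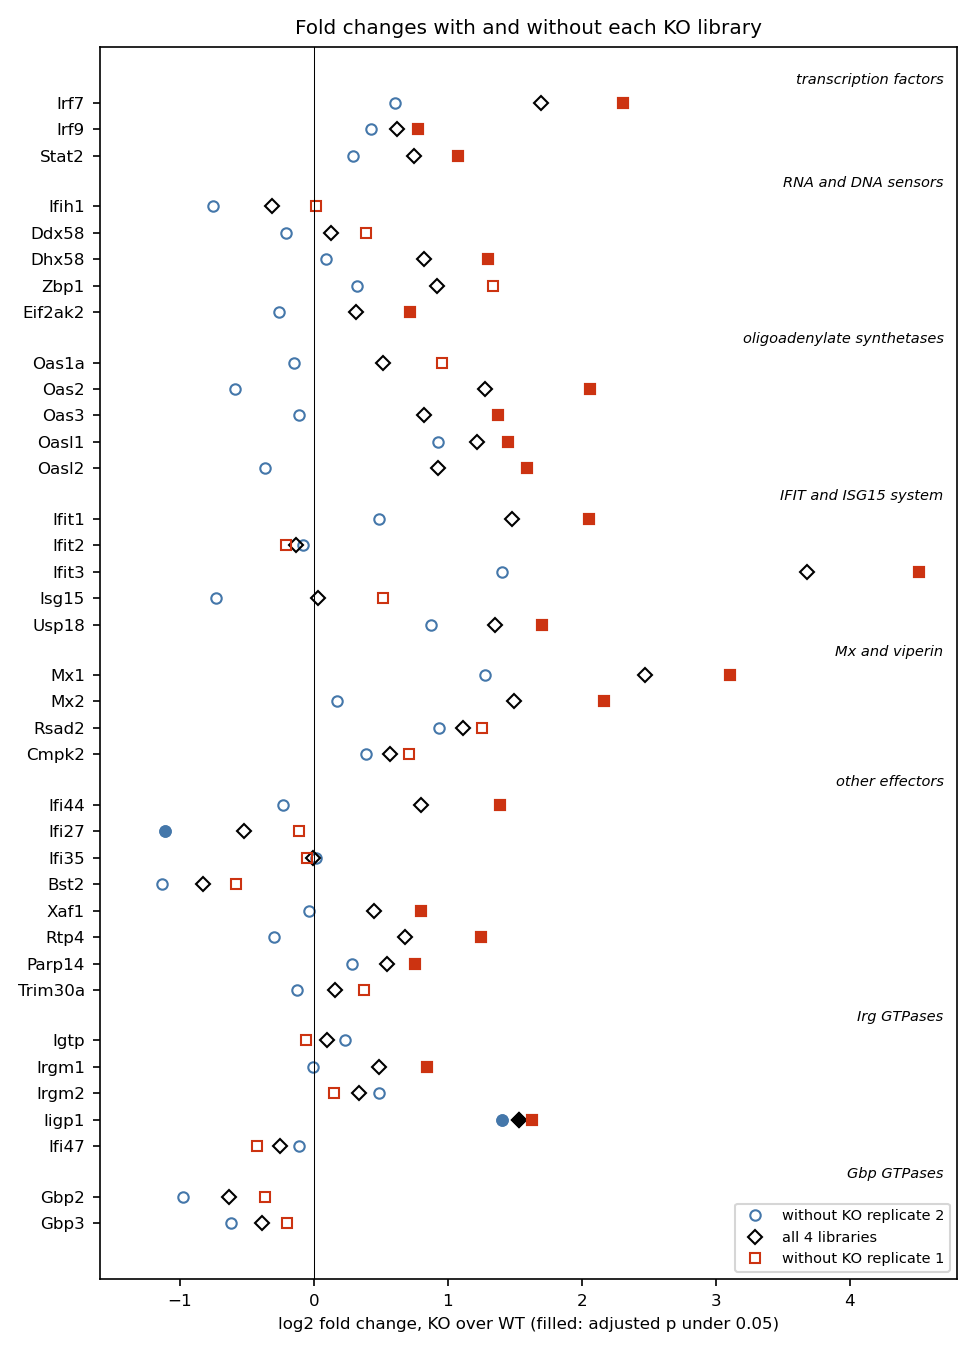
Log2 fold change of KO over WT for each member with all 4 libraries (black diamonds), without KO replicate 2 (blue circles) and without KO replicate 1 (red squares), filled where the adjusted p was under 0.05. The red squares are filled for 18 of 30 type I targets and 2 of 7 GTPases, and the blue circles for Ifi27 and Iigp1.

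Leaving out either KO library gave different member counts. Without KO replicate 1, 18 of 30 type I targets and 2 of 7 GTPases were called higher and none lower, against 6.77% and 7.88% of all genes tested in that fit. This fit has 1 KO library, which is assumed to vary like the WT pair. The called type I targets included all 3 transcription factors and 4 of 5 oligoadenylate synthetase genes, and the medians were 1.16 for type I targets and -0.06 for GTPases. Without KO replicate 2, Iigp1 was higher and Ifi27 lower, where 3.39% and 2.84% of all genes were called, and the type I median was -0.01. Irf7 had a log2 fold change of 2.30 (adjusted p = 0.000376) without KO replicate 1 and 0.61 without KO replicate 2. Without WT replicate 1 no member was called (1.08% of genes higher, 0.642% lower), and without WT replicate 2 Rsad2 alone was (1.49% and 0.685%).

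Other type I induced genes outside the set had a smaller gap between the KO libraries. Of 45 tested, 3 were higher and 1 lower, with a median log2 fold change of 0.41. The counts were 12 higher and 3 lower without KO replicate 1, 1 and 2 without KO replicate 2, none without WT replicate 1 and 1 higher without WT replicate 2. Of the 45, 32 were higher in KO replicate 2 than in KO replicate 1, 5 by at least 2-fold. Of the 14 tested among other Irg and Gbp genes, 10 were higher there, 1 by at least 2-fold. Over all genes tested these shares were 49.2% and 6.68%. Slfn5, a Schlafen family gene, was at 29.1 and 28.1 CPM in WT and at 51.7 and 102 CPM in KO (log2 fold change 1.43, standard error 0.28, edgeR adjusted p = 0.0142). Ifi205, an AIM2-like receptor gene, was at 0.61 and 1.29 CPM in WT and at 5.20 and 8.94 CPM in KO (log2 fold change 2.895, edgeR adjusted p = 0.0193). Both lay above WT in both KO libraries, and both missed the threshold in some fits with a library left out. Slfn5 had adjusted p = 0.0530 and 0.0832 when WT replicates 1 and 2 in turn were left out. Ifi205 had adjusted p = 0.126 without WT replicate 1 and 0.0624 without KO replicate 2. Lgals9, a galectin gene, was at 276 and 246 CPM in WT and at 164 and 153 CPM in KO (log2 fold change -0.72, edgeR adjusted p = 0.0175), with adjusted p = 0.210 and 0.0729 when WT replicates 1 and 2 in turn were left out.

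Of 12 genes that sense nucleic acids and relay the signal to interferon genes, 4 were higher in KO and none lower (median 0.61; 7 with an unadjusted p under 0.05, 6 of them higher). Without KO replicate 1, edgeR called 6 higher, without WT replicate 1 it called 2, and without KO replicate 2 it called 4 higher and 1 lower. Tlr3, the endosomal receptor for double-stranded RNA, rose from 4.10 and 4.39 CPM in WT to 21.0 and 30.5 CPM in KO (log2 fold change 2.60, edgeR adjusted p = 0.00131). Tlr9, the receptor for CpG DNA, rose from 2.01 and 2.74 CPM to 13.6 and 13.8 CPM (log2 fold change 2.53, edgeR adjusted p = 0.00459). Unc93b1, which carries these receptors to endosomes, and the DNA sensor Aim2 also rose (log2 fold changes 0.90 and 0.92), but missed the threshold without WT replicate 1, as Unc93b1 did without WT replicate 2. These genes were higher in both KO libraries alike, unlike most type I targets.

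Of 7 inhibitors of the pathway none passed (median 0.43; 3 with an unadjusted p under 0.05; edgeR called 3 higher without KO replicate 1). Adar, an RNA editor that limits RNA sensing, was at 43.7 and 44.5 CPM in WT and at 46.7 and 87.7 CPM in KO, and Socs1, a feedback inhibitor, was under 2 CPM in every library. Of 17 genes of antigen presentation and interferon gamma response, 2 were higher and none lower (median 0.12; 4 higher and 2 lower at an unadjusted p under 0.05). Without KO replicate 1, edgeR called 3 higher and 3 lower, the latter being the proteasome genes Psmb8, Psmb9 and Psme1 (log2 fold changes -0.79, -0.69 and -0.89), which were lowest in KO replicate 2. Cxcl9, a chemokine induced by interferon gamma, rose from 3.45 and 3.14 CPM to 17.0 and 35.2 CPM (log2 fold change 2.98, edgeR adjusted p = 0.00167). Ciita, the coactivator of class II genes, rose from 3.70 and 3.70 CPM to 16.4 and 16.9 CPM (log2 fold change 2.17, edgeR adjusted p = 0.00491). Cxcl10, a chemokine of both interferon types, was near 1 CPM in all libraries, from 0.77 to 1.21 CPM.

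Markers of other cell types were set beside these values. In bulk RNA, more cells of a type and more RNA per cell cannot be told apart. For 5 plasmacytoid dendritic cell markers, the cells known for type I interferon production, the sums were 32.5 to 37.3 CPM in WT and 46.0 and 35.7 CPM in KO, with none of 4 tested past the threshold (1 with an unadjusted p under 0.05; edgeR called Siglech higher without KO replicate 2 or WT replicate 1, and Cox6a2 lower without KO replicate 1). Siglech, their defining receptor, was at 1.58 and 0.12 CPM in WT and at 9.13 and 3.15 CPM in KO, while Cox6a2, of the same list, was at 2.44 and 4.47 CPM in WT and at 2.49 and 0.30 CPM in KO. Ccr9 and Pacsin1 had log2 fold changes of 0.05 and 0.60, and Klk1 had no read. For 9 conventional dendritic cell markers the sums were 243 and 251 CPM in WT and 851 and 792 CPM in KO, with 5 of 8 tested higher. For 8 monocyte and macrophage markers they were 115 and 108 CPM in WT and 162 and 141 CPM in KO, with 1 of 8 higher (3 without KO replicate 1, none without KO replicate 2 or WT replicate 1).

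Neutrophil markers (7 of 8 in the table, 4 higher; 1 without KO replicate 1, 7 without KO replicate 2, none without WT replicate 1) summed to 324 and 482 CPM in WT and to 866 and 639 CPM in KO, and mast cell markers (6 of 7 higher) to 19.0 and 15.7 CPM in WT and to 183 and 113 CPM in KO. B cell markers (4 of 6 lower) summed to 164 and 190 CPM in WT and to 68.7 and 52.0 CPM in KO. T cell markers summed to between 51.3 and 60.5 CPM and NK cell markers to between 50.3 and 65.1 CPM over the 4 libraries, none of them called (0 and 3 with an unadjusted p under 0.05; edgeR without KO replicate 1 called 1 NK cell gene higher and 1 lower). Ncr1, which defines NK cells, had at most 3 counts. Erythroblast markers (none of 3 tested called) summed to 15.8 and 64.8 CPM in WT and to 119 and 84.2 CPM in KO, and stroma and endothelium markers (none of 6 called) to 66.7 and 148 CPM in WT and to 123 and 86.5 CPM in KO. Unadjusted p was under 0.05 for 3 and 4 of them, and edgeR without KO replicate 2 called 2 and 1 higher. Without KO replicate 1 it called 1 erythroblast gene higher, and 1 stroma gene higher and 1 lower. Iigp1, Tlr3, Tlr9, Ciita and Cxcl9 were higher in both KO libraries than in both WT libraries, as were 28.8% of all genes tested. The same held for 7 of 8 tested conventional dendritic cell markers and 6 of 7 mast cell markers. It also held for 6 of 7 neutrophil, 6 of 8 monocyte and macrophage and 3 of 3 erythroblast markers. For plasmacytoid dendritic cell, B cell, T cell, NK cell and stroma markers it held for 2 of 4, 1 of 6, 2 of 4, 1 of 4 and 2 of 6. The part of those cells in these values was not tested. KO replicate 2, with its higher type I level, had lower sums than KO replicate 1 for every marker list, but higher sums than both WT libraries for conventional dendritic cell, monocyte, neutrophil, mast cell and erythroblast markers. It also had the smaller Rn45s share. The part of these in the type I values was not tested.

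**Figure D4:**
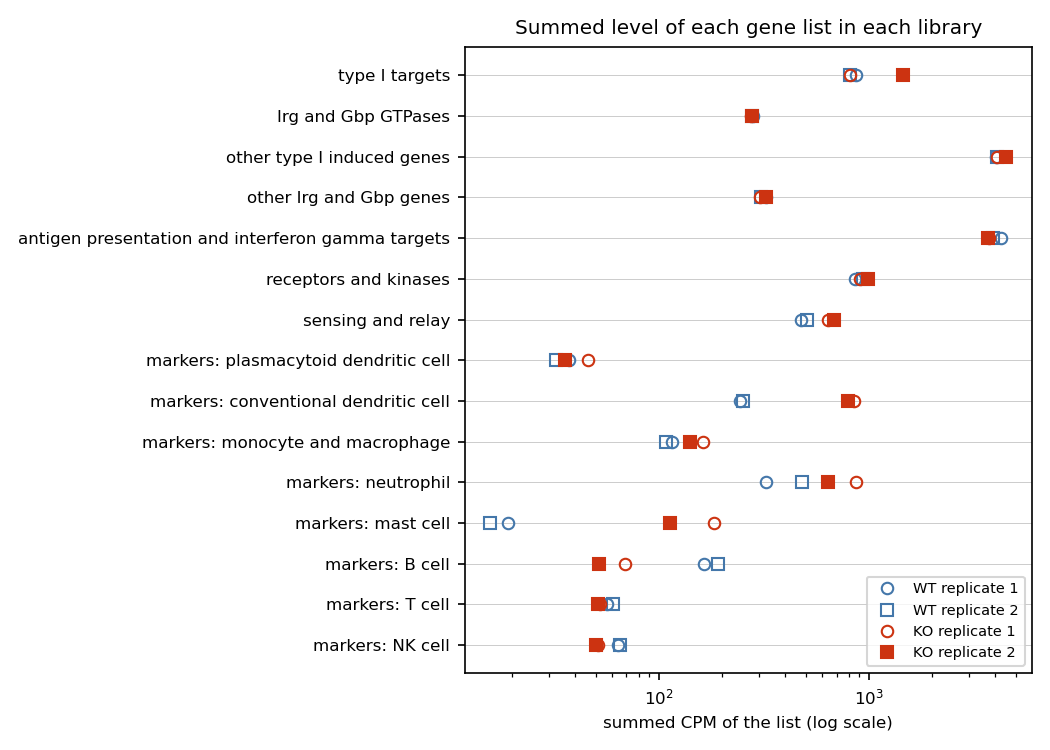
Summed CPM of each gene list in each library on a log axis (blue WT, red KO; circles replicate 1, squares replicate 2). KO replicate 2 (filled square) stands to the right for the type I targets (1446 CPM against 809 to 867 CPM), while for the marker lists it lies at or left of KO replicate 1.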

How the data were processed

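RNA was sequenced in 2 WT and 2 KO LSK libraries. The authors deposited raw read counts per gene symbol. They name HTSeq 0.8.0, Picard 2.9.4, SAMtools 1.5 and TopHat2 2.1.1, with build mm10, per the submitters' processing notes. The annotation, strand setting and duplicate handling were not given in the sources used here, so overlapping and antisense genes cannot be separated. Of 24421 genes, 6762 had no read. Counts were tested with edgeR 4.0.16 (R 4.3.3; TMM, filterByExpr with minimum count 10 and minimum total 15, quasi-likelihood test, adjusted p under 0.05), and the step was tested on simulated data. The standard error is the absolute log2 fold change divided by the square root of F. CPM are TMM-scaled. Differences between libraries use log2 CPM with a prior count of 2. Alternatives were DESeq2 1.42.0, other factors and filters, no Rn45s, each library left out, and a replicate block. Positions and exon lengths came from GENCODE on the same build. Intervals and the floor cover counting error only. All members are named; from the other lists, most genes past the threshold are named and a few were chosen after their values were seen. Members and lists were chosen with earlier results of these data known. Some genes of the other lists are not reported here by name.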

Additional observations from a re-analysis of the deposited data

How the results depend on the processing

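Leaving out 1 library at a time gave 160 to 997 genes higher and 95 to 1161 lower over all genes tested, 0 to 20 members higher and 0 to 1 lower, and medians from -0.012 to 1.162 for type I targets and from -0.057 to 0.093 for GTPases. Over all genes, 844 were higher and 799 lower with DESeq2, 1056 and 987 with no filter, and 1312 and 1314 with the replicate block, against 533 and 425. Members higher numbered 2 with upper quartile factors, 5 with DESeq2, 14 with no filter and 10 with the block, which also called 1 lower (Ifi27). The cause of these shifts was not tested. The labels give no pairing beyond the number, and the replicate differences of WT and KO correlated at 0.076 across genes, so the number is not taken to pair the libraries. These log2 fold changes changed sign when a library was left out, given as lowest to highest over the 4 omissions: Isg15 (-0.730 to 0.515), Oas1a (-0.145 to 0.954), Oas2 (-0.592 to 2.060), Oas3 (-0.108 to 1.372), Oasl2 (-0.362 to 1.590), Ifi44 (-0.232 to 1.388), Ifi35 (-0.237 to 0.237), Ifih1 (-0.752 to 0.018), Ddx58 (-0.205 to 0.391), Xaf1 (-0.039 to 0.799), Rtp4 (-0.299 to 1.245), Trim30a (-0.123 to 0.377), Eif2ak2 (-0.262 to 0.715), Igtp (-0.057 to 0.229), Irgm1 (-0.007 to 0.846), Kit (-0.022 to 0.165) and Ly6a (-0.193 to 0.655). Ifi35 was also at 0.073 with upper quartile factors, 0.004 with the stricter filter and 0.008 with the block, and Isg15 at -0.04 with the block. Members under about 10 counts in a library, such as Ifit3 and Mx1 in WT, are limited by depth.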
